A study of Mus musculus with 30 samples.

Results

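MHC class I molecules show peptides from inside a cell to CD8 T cells, and NK cells read their presence or absence. A heavy chain pairs with the light chain beta-2 microglobulin, proteasomes cut proteins into peptides, a transporter carries the peptides into the endoplasmic reticulum, and a loading complex fits them into the groove. Interferons raise most of these genes, and NLRC5 drives their transcription from a shared promoter module. The 10 genes described here cover each step: the heavy chains *H2-K1* and *H2-D1*, the light chain *B2m*, the transporter subunits *Tap1* and *Tap2*, the loading protein *Tapbp*, the immunoproteasome subunits *Psmb8*, *Psmb9* and *Psmb10*, and the transactivator *Nlrc5*. They were picked by their role, with earlier results of these data known. Each matched a single gene of the count table by symbol, and together they make up 10 of its 55416 gene IDs.

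The samples were dissected calluses of closed tibial fractures, left without stabilization, in mice 7 to 12 weeks old on C57BL/6 backgrounds. P-Apex1KO mice (Prrx1-Cre;Apex1 C/C) carried Prrx1-Cre and 2 floxed *Apex1* alleles, and their littermates, which included mice with Prrx1-Cre and 1 floxed allele (Apex1 C/+) and mice with floxed alleles and no Cre, were grouped as WT. *Apex1* encodes a protein of DNA base excision repair that also keeps transcription factors reduced, and Prrx1-Cre acts in limb mesenchyme, so blood, endothelial and immune cells of the callus keep the gene. There were 4 WT and 4 P-Apex1KO mice at 3 days post fracture (3-dpf), 5 and 3 at 6-dpf, 4 and 3 at 10-dpf, and 4 and 3 at 14-dpf, and nothing in the labels links mice of different groups. For 3-dpf the paper describes tibiae dissected around the fracture, and for 6-dpf whole calluses. RNA was taken from undivided tissue, so fewer cells of a type and less RNA per cell cannot be told apart.

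Libraries held 18334389 to 43111491 reads on genes, and each of the 10 genes had at least 139 reads in every library. Levels are CPM, the reads of a gene relative to the size of its library, scaled by TMM over all 30 libraries. Genotypes were compared day by day in edgeR (quasi-likelihood test, sex as a covariate), p-values were adjusted by Benjamini-Hochberg across every gene that entered the fit, and a gene was called at an adjusted p below 0.05. *Apex1* was lower in P-Apex1KO calluses, with log2 fold changes of -0.67 ± 0.11 (SE) at 6-dpf (edgeR adjusted p = 0.0071) and -0.65 ± 0.13 at 10-dpf (edgeR adjusted p = 0.0278). At 3-dpf its values overlapped: the P-Apex1KO mice had 18.4, 29.04, 27.6 and 34.5 CPM and the WT mice 29.97, 26.4, 33.1 and 31.7 CPM, so the library labelled P-Apex1KO replicate 4 lay above every WT library. At 14-dpf they did not overlap, at 14.2 to 18.6 CPM against 19.8 to 27.2 CPM, and edgeR did not call the difference (adjusted p = 0.367). All 3 P-Apex1KO mice at 14-dpf were female and only 1 WT mouse was, replicate 1, and once sex is a covariate the 14-dpf comparison depends on that animal.

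Class I presentation genes lay higher in P-Apex1KO calluses. The fitted log2 fold change of P-Apex1KO over WT was above 0 for 10 of 10 genes at 3-dpf, 10 of 10 at 6-dpf, 10 of 10 at 10-dpf and 9 of 10 at 14-dpf. Its median over the 10 genes was 0.35, 0.61, 0.62 and 0.48 in that order, where the median over all genes tested was -0.0028, 0.013, -0.0031 and 0.043. edgeR called 0 of the 10 genes at 3-dpf, 1 at 6-dpf (*H2-D1*), 5 at 10-dpf (*H2-D1*, *Tap1*, *Tapbp*, *Psmb8* and *Psmb9*) and 0 at 14-dpf, all of them higher. The shares of all genes that edgeR called higher were 0%, 5.31%, 3.01% and 4.28%. So the 10-dpf count stood furthest above its background. At an unadjusted edgeR p below 0.05, 7, 10, 9 and 4 of the 10 genes were higher, against 4.00%, 13.8%, 12.9% and 12.9% of all genes. DESeq2's Wald test with sex, the kind of test the study used, called 0, 6, 8 and 2 genes, against 0.413%, 8.14%, 6.33% and 7.12% of all genes.

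Counting the genes whose P-Apex1KO mice all lay above all WT mice gave 5 of 10 at 3-dpf, 1 at 6-dpf, 8 at 10-dpf and 7 at 14-dpf. The same held for 1.97%, 8.71%, 8.78% and 18.5% of all genes tested. The 6-dpf count was near its background. WT replicate 5 at 6-dpf had all 10 genes above the WT mean of that day, by a median of 0.54 on the log2 scale, and it lay above at least 1 P-Apex1KO mouse in 9 of the 10 genes, the exception being *H2-D1*. In those 9 genes the other 4 WT mice all lay below the lowest P-Apex1KO mouse.

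**Figure D1:**
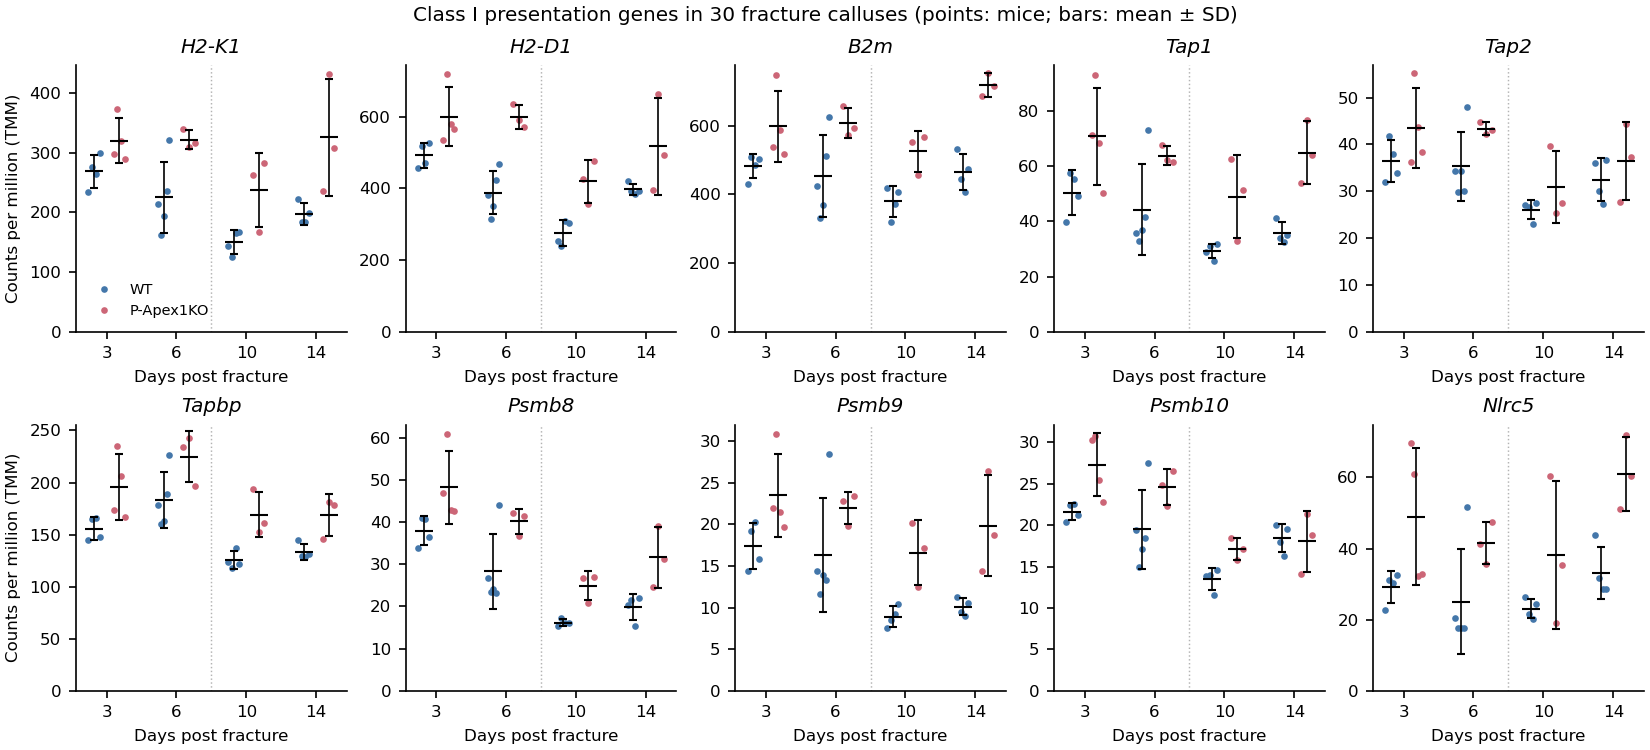
CPM (vertical axes, from 0) of each of the 10 genes against days post fracture, with 1 point per mouse, WT in blue and P-Apex1KO in red, black bars for the mean ± SD, and a dotted line between 6- and 10-dpf, where sample names change and no comparison was made. At 10-dpf 8 of the 10 panels show no overlap of the genotypes, and at 6-dpf WT replicate 5 is the blue point inside or above the red ones in every panel except *H2-D1*.

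**Figure D2:**
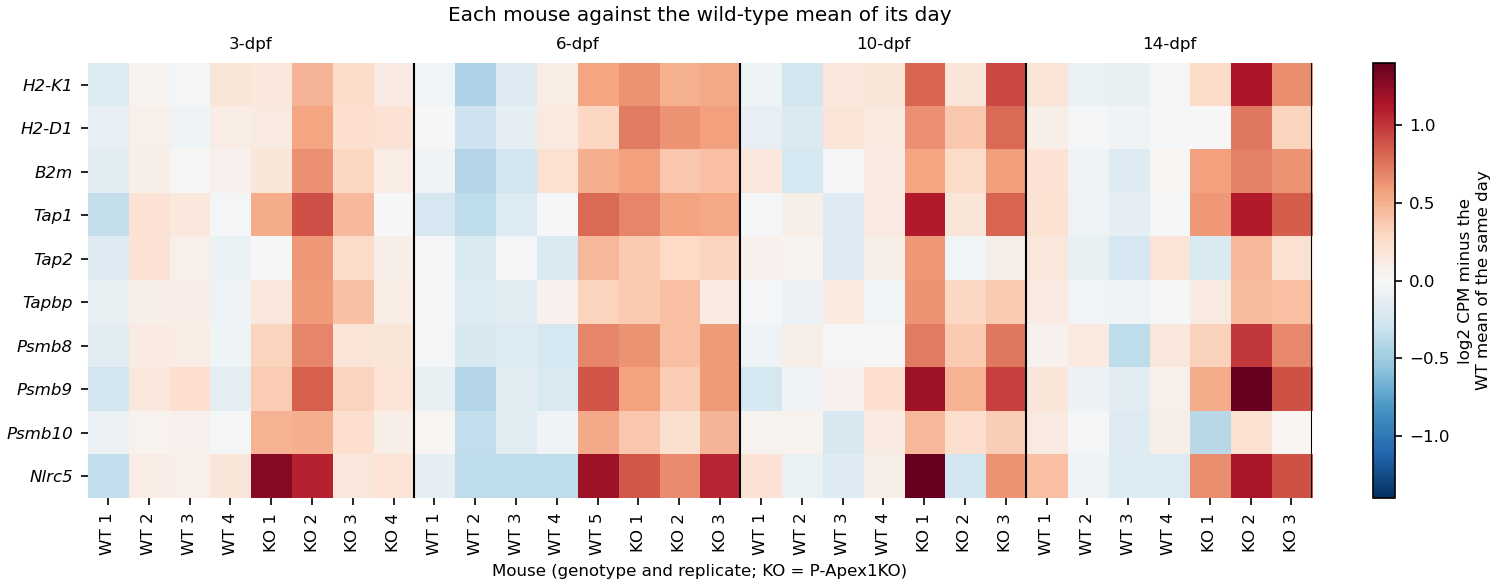
The log2 CPM of each gene (rows) in each mouse (columns) minus the WT mean of the same day, on a scale from blue (lower) to red (higher). The genes move together from mouse to mouse: WT replicate 5 at 6-dpf resembles the P-Apex1KO columns beside it, and P-Apex1KO replicate 2 at 10-dpf, with a median of 0.26, is paler than the other 2.

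Promoter windows were searched for the letters of elements through which NLRC5 and interferons are known to act. Windows of 250 bases before to 50 bases after the transcription start were taken from RefSeq (GRCm38.p6) for the 8 of 10 genes that the table holds, and each matched GRCm39 at 1 place on the gene's chromosome. Searched on both strands were the interferon-stimulated response element (GAAANNGAAA), the interferon gamma activated site (TTCNNNGAA), the Y box (ATTGG) and the core of the cAMP response element (TGACG), none of which contains another. They occur in 3.44%, 8.30%, 37.4% and 20.8% of all 32851 windows. The windows of *H2-K1* (GRCm39 chr17:34219272-34219571, minus strand), *H2-D1* (chr17:35481820-35482119, plus strand) and *B2m* (chr2:121977918-121978217, plus strand) are shown because they share the same pair of elements. That of *Tap1* (chr17:34406280-34406579, plus strand) is shown because *Psmb9* is read from its other strand. The RefSeq start sites lay 534 bases (*Tap1*) and 379 bases (*H2-D1*) from the annotated gene starts. The *Tap1* window thus lies inside the annotated span of that gene. Capitals mark the elements found:
H2-K1: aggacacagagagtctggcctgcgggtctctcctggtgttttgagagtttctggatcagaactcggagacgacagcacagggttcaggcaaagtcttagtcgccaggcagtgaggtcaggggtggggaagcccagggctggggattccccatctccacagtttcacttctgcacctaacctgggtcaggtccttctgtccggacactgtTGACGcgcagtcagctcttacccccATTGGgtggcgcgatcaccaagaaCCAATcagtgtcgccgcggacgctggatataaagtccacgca
H2-D1: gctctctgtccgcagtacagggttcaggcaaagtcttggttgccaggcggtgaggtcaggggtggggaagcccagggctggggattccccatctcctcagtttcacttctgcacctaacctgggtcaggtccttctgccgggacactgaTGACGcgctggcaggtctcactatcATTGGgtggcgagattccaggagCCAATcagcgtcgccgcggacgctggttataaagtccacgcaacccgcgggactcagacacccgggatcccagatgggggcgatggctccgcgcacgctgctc
B2m: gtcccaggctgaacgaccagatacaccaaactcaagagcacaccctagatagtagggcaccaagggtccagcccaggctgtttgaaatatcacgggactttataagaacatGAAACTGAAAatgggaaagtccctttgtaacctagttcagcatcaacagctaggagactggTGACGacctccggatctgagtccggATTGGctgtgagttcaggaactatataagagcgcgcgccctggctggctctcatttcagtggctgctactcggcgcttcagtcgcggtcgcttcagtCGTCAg
Tap1: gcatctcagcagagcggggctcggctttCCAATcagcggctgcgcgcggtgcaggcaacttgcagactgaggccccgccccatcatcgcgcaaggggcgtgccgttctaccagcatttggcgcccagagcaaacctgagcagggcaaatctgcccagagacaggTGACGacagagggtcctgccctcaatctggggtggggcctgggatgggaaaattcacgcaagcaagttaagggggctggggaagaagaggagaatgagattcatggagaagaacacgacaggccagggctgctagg
In *H2-K1*, *H2-D1* and *B2m* a TGACG was followed after exactly 20 bases by an ATTGG, a spacing noticed in these windows and present in 0.0944% of all windows. It joins the genes of the heavy and light chains, which lie on chromosomes 17 and 2. Of the 8 genes, the exact letters GAAANNGAAA were found in *B2m* and TTCNNNGAA in *Psmb8*, and forms of these elements that differ by a base were not searched, so no match says only that these letters are not in a window. The *Psmb10* window held none of the 4, and the *Tapbp* window the Y box alone. The start site of the *Tapbp* window lay 3579 bases from the annotated gene start, which the window does not cover. A match describes the letters of these windows and was not tested against binding.

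The heavy chains form the peptide groove. *H2-K1* lies on chromosome 17 at 34214987 to 34219321 and *H2-D1* at 35481691 to 35486475 (GRCm39). *H2-D1* was the gene of the 10 called at both 6- and 10-dpf. At 6-dpf its 5 WT mice had 382, 315, 351, 422 and 468 CPM and its 3 P-Apex1KO mice 636, 592 and 572 CPM. The groups did not overlap, and the log2 fold change was 0.69 ± 0.13 (edgeR adjusted p = 0.0111). *H2-D1* at 10-dpf was at 252, 238, 310.2 and 302 CPM in WT and 426, 356 and 475 CPM in P-Apex1KO mice, again without overlap, with a log2 fold change of 0.60 ± 0.13 (edgeR adjusted p = 0.0315). At 3-dpf the values were closer, at 456, 518, 471 and 527 CPM in WT and 536, 719.8, 580.5 and 566 CPM in P-Apex1KO mice. The 3-dpf groups did not overlap either, but the difference of 0.28 ± 0.12 was not called (edgeR adjusted p = 0.793). At 14-dpf the WT mice were tightly grouped at 419.6, 392, 384 and 393 CPM, and the P-Apex1KO mice spread over 395, 664 and 494 CPM, replicate 1 lying inside the WT range.

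*H2-K1* was called on no day. At 6-dpf the WT mice had 214, 162, 194, 236 and 321 CPM and the P-Apex1KO mice 339.6, 309.7 and 317 CPM, an overlap due to WT replicate 5 alone. The log2 fold change was 0.61 ± 0.18 (edgeR adjusted p = 0.0538). *H2-K1* at 10-dpf read 143, 125, 165 and 167 CPM in WT and 263, 168 and 283 CPM in P-Apex1KO mice, whose replicate 2 cleared the highest WT mouse by less than 1 CPM. At 14-dpf, WT values of 222, 184, 183 and 199 CPM stood below P-Apex1KO values of 237, 432 and 309 CPM, the widest spread of this gene within any group. Neither the 10-dpf difference (0.67 ± 0.19, edgeR adjusted p = 0.0861) nor the 14-dpf one (0.58 ± 0.30, edgeR adjusted p = 0.262) was called. At 3-dpf the 4 WT mice had 234 to 299.98 CPM and the 4 P-Apex1KO mice 289.6 to 373 CPM.

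Class I heavy chain genes share long near-identical stretches, and only uniquely mapped reads were counted, so the split of reads between *H2-K1*, *H2-D1* and their paralogs is uncertain. Reads that map to several of them were not counted and are missing from a sum as well. In the sum over 16 heavy chain genes, *H2-K1* and *H2-D1* supplied 75.5 to 82.9% of the reads in every library. The sum gave log2 fold changes of 0.30 ± 0.12, 0.64 ± 0.15, 0.63 ± 0.15 and 0.51 ± 0.27 at 3-, 6-, 10- and 14-dpf. It was called at 6-dpf (edgeR adjusted p = 0.0269) and 10-dpf (edgeR adjusted p = 0.0485), and not at 3-dpf (0.787) or 14-dpf (0.259). The other heavy chain genes, most of them nonclassical, had medians of 0.31, 0.54, 0.75 and 0.83, with 0 of 9, 3 of 11, 2 of 10 and 2 of 10 tested genes called higher. Among them were *H2-M3*, which presents formylated bacterial peptides (log2 fold change 0.74 at 6-dpf, edgeR adjusted p = 0.0144), and *H2-T23*, whose product Qa-1 is a ligand of NK cell receptors (0.56 at 6-dpf, edgeR adjusted p = 0.0246; 0.81 at 10-dpf, edgeR adjusted p = 0.0435).

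*B2m* encodes the light chain without which the heavy chains do not reach the surface, and it lies on chromosome 2 at 121977957 to 121983594. Per kilobase of exon it was the most abundant of the 10 genes, at 229 ± 16.998 RPKM in WT mice at 3-dpf (SD, n = 4), against 165 ± 11.6 for *H2-D1*, 84.3 ± 8.60 for *H2-K1* and 3.44 ± 0.515 for *Nlrc5*, the least abundant. At 14-dpf its WT mice had 532, 446, 408 and 472 CPM and its P-Apex1KO mice 687, 754 and 714 CPM. That was the clearest separation of this gene, every P-Apex1KO mouse exceeding the highest WT mouse by more than the WT range, and the fitted difference with sex was 0.46 ± 0.14 (edgeR adjusted p = 0.076). *B2m* at 10-dpf was at 419, 318, 373 and 408 CPM in WT and 552, 456 and 567 CPM in P-Apex1KO mice, without overlap, and its log2 fold change was 0.48 ± 0.13 (edgeR adjusted p = 0.0654). At 6-dpf the ranges were 331 to 626 CPM in WT and 572 to 657 CPM in P-Apex1KO mice, and at 3-dpf 430.1 to 509 CPM and 518 to 748 CPM. *B2m* was called on no day.

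*Tap1* and *Tap2* encode the subunits of the peptide transporter, and *Tapbp* encodes tapasin, which holds empty class I molecules at that transporter. All 3 lie within the MHC on chromosome 17, where *Tap1* spans 34405996 to 34416199. At 10-dpf *Tap1* was at 28.7, 30.96, 25.7 and 31.7 CPM in WT and 62.8, 32.8 and 51.4 CPM in P-Apex1KO mice. The groups did not overlap, although P-Apex1KO replicate 2 exceeded the highest WT mouse by about 1 CPM, and the difference of 0.78 ± 0.18 was called (edgeR adjusted p = 0.0478). *Tap1* at 14-dpf was at 41.4, 33.96, 32.4 and 35.3 CPM in WT and 54.1, 76.9 and 64.2 CPM in P-Apex1KO mice. These groups were further apart than at 10-dpf, and with sex in the model the difference was 0.68 ± 0.20 and not called (edgeR adjusted p = 0.0697). At 6-dpf the WT mice had 35.9, 33.1, 37.1, 41.6 and 73.2 CPM and the P-Apex1KO mice 67.8, 62.5 and 61.6 CPM. WT replicate 5 was thus the highest of the 8 mice, and the other 4 WT mice all lay below the lowest P-Apex1KO mouse. At 3-dpf the P-Apex1KO values of 71.4, 93.4, 68.5 and 50.2 CPM overlapped the WT range of 39.7 to 57.6 CPM through replicate 4, the library with the highest *Apex1* value.

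*Tap2* differed less than *Tap1*. Its log2 fold changes were 0.30 ± 0.15, 0.41 ± 0.13, 0.28 ± 0.12 and 0.048 ± 0.27 at the 4 days, none was called by edgeR, and the genotypes overlapped each time. At 14-dpf its WT mice had 35.99, 29.97, 27.3 and 36.6 CPM and its P-Apex1KO mice 27.8, 44.4 and 37.3 CPM, of which replicate 1 lay inside the WT range and replicate 3 exceeded it by less than 1 CPM. *Tapbp* was called at 10-dpf, when the WT mice had 124, 118, 138 and 122 CPM and the P-Apex1KO mice 194, 153 and 161 CPM. These groups did not overlap, and the log2 fold change was 0.45 ± 0.10 (edgeR adjusted p = 0.0416). *Tapbp* at 14-dpf was at 145, 129, 128 and 131 CPM in WT and 146, 182 and 179 CPM in P-Apex1KO mice, separated by about 1 CPM, with a fitted difference of 0.25 ± 0.15 (edgeR adjusted p = 0.326). *Tapbp* overlaps *Zbtb22* on the same strand, a gene with at most 1418 reads in a library, so reads of their overlap cannot be told apart.

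The remaining chaperones and peptidases of class I loading did not share the direction of *Tapbp* on every day. Of 12 genes listed as loading chaperones or trimming enzymes, 6 of 12, 3 of 12, 8 of 12 and 6 of 12 had a log2 fold change above 0 at 3-, 6-, 10- and 14-dpf, and their medians were -0.00024, -0.17, 0.041 and 0.00021. At an unadjusted edgeR p below 0.05 there were 0, 5, 2 and 1 of the 12 in either direction. The shares of all genes below that threshold were 6.12%, 26.2%, 24.3% and 27.6%. The only one called was *Tapbpl*, a peptide editor related to tapasin, at 10-dpf (log2 fold change 0.76 ± 0.12, edgeR adjusted p = 0.017).

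*Psmb8*, *Psmb9* and *Psmb10* encode the catalytic subunits that replace *Psmb5*, *Psmb6* and *Psmb7* in the immunoproteasome. *Psmb8* at 10-dpf was at 15.4, 17.2, 15.97 and 16.1 CPM in WT and 26.8, 20.9 and 26.98 CPM in P-Apex1KO mice. The WT mice were tightly grouped, no value overlapped, and the log2 fold change of 0.64 ± 0.11 had the smallest adjusted p of the 10 genes that day (edgeR adjusted p = 0.0201). *Psmb9* at 10-dpf was at 7.50, 8.54, 9.25 and 10.4 CPM in WT and 20.2, 12.5 and 17.1 CPM in P-Apex1KO mice. It had the largest log2 fold change of the 10 genes that day, 0.90 ± 0.19 (edgeR adjusted p = 0.0305). *Psmb10*, whose gene lies on chromosome 8 outside the MHC, was at 13.9, 13.9, 11.5 and 14.6 CPM in WT and 18.5, 15.8 and 17.1 CPM in P-Apex1KO mice at 10-dpf. Its groups did not overlap either, and its difference of 0.38 ± 0.11 was not called (edgeR adjusted p = 0.0823).

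At 14-dpf the 3 subunits parted. *Psmb8* was at 20.4, 21.6, 15.4 and 21.9 CPM in WT and 24.5, 39.03 and 31.3 CPM in P-Apex1KO mice, and *Psmb9* at 11.3, 9.51, 9.005 and 10.6 CPM and 14.4, 26.4 and 18.7 CPM, both without overlap. *Psmb10* at 19.99, 18.001, 16.3 and 19.5 CPM in WT lay in the range of the P-Apex1KO mice, 14.04, 21.3 and 18.8 CPM. It was the 1 gene of the 10 with a fitted value below 0 that day (-0.12 ± 0.24, edgeR adjusted p = 0.781), and without sex in the model its log2 fold change was 0.0094. At 6-dpf WT replicate 5 was the highest mouse for all 3: *Psmb9*, for example, was at 14.4, 11.6, 13.9, 13.3 and 28.5 CPM in WT and 22.8, 19.8 and 23.4 CPM in P-Apex1KO mice. At 3-dpf *Psmb8* ranged over 33.9 to 40.8 CPM in WT and 42.5 to 60.8 CPM in P-Apex1KO mice, and *Psmb10* over 20.4 to 22.6 CPM and 22.8 to 30.8 CPM. Those 2 genes did not overlap at 3-dpf and *Psmb9* did.

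**Figure D3:**
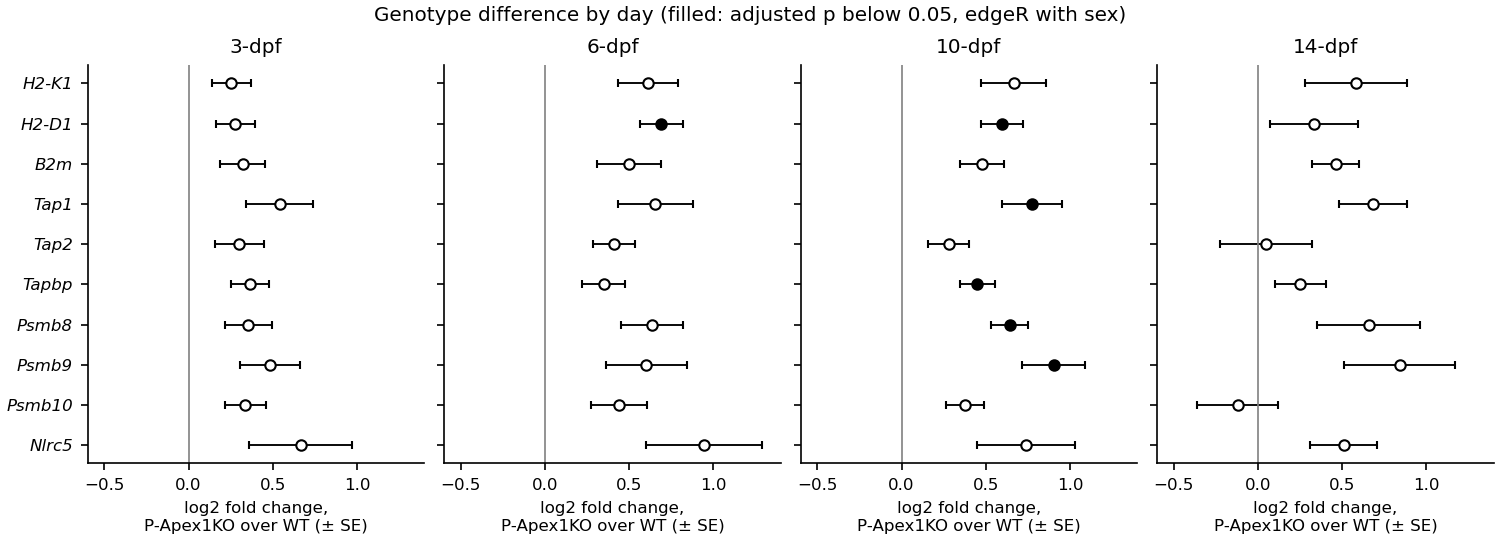
Log2 fold change of P-Apex1KO over WT (horizontal axes) with its standard error for each gene (rows) at each day (panels), from edgeR with sex, with filled points for adjusted p below 0.05. Points lie right of 0 except *Psmb10* at 14-dpf, and filled points are *H2-D1* at 6-dpf and 5 genes at 10-dpf.

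Medians of the rest of the 20S proteasome stayed near 0, except for the standard catalytic subunits at 14-dpf. The 11 other 20S subunits had medians of 0.073, 0.012, 0.067 and 0.011, and the 3 standard catalytic subunits of 0.09, 0.03, 0.025 and -0.24, with none called on any day. *Psmb5* at 14-dpf was at 31.1, 31.3, 28.5 and 30.6 CPM in WT and 18.1, 23.9 and 19.4 CPM in P-Apex1KO mice, lower without overlap and not called (-0.57 ± 0.18, edgeR adjusted p = 0.0761). *Psme1*, a subunit of the interferon-responsive activator that caps the proteasome, had log2 fold changes of 0.22, 0.27, 0.26 and 0.27, and its partner *Psme2* of 0.15, 0.10, 0.074 and -0.063, none of them called.

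The balance of immunoproteasome to standard subunits was taken within each mouse as a ratio of RPKM values. A ratio also rises where the standard subunit is lower, and at 14-dpf *Psmb5* was lower without overlap. The median log2 fold change of the 3 standard subunits that day was -0.24. *Psmb8*/*Psmb5* at 14-dpf was 0.345, 0.363, 0.283 and 0.377 in WT and 0.712, 0.857 and 0.845 in P-Apex1KO mice, a difference of 1.24 ± 0.13 on the log2 scale (exact permutation test, two-sided p = 0.0571). *Psmb9*/*Psmb6* that day was 0.0825, 0.0564, 0.0628 and 0.0672 in WT and 0.136, 0.244 and 0.147 in P-Apex1KO mice, a difference of 1.35 ± 0.29 (exact permutation test, two-sided p = 0.0571). Both ratios separated the genotypes completely, and 0.0571 is the smallest p that 4 against 3 mice allow, so the design could not reach 0.05 there. These tests take no account of sex, and the single WT female, replicate 1, had the highest WT *Psmb9*/*Psmb6*. *Psmb10*/*Psmb7* differed by -0.067 ± 0.20 and overlapped. The difference in *Psmb8*/*Psmb5* was 0.088 ± 0.14 at 3-dpf, 0.53 ± 0.20 at 6-dpf and 0.55 ± 0.26 at 10-dpf, and that in *Psmb9*/*Psmb6* was 0.31 ± 0.19, 0.66 ± 0.25 and 0.89 ± 0.32. *Psmb9*/*Psmb6* also separated the genotypes at 10-dpf, at 0.0492 to 0.0669 in WT and 0.078 to 0.163 in P-Apex1KO mice (exact permutation test, two-sided p = 0.0571). None of the 12 tests passed after Benjamini-Hochberg adjustment, the smallest adjusted p being 0.171.

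**Figure D4:**
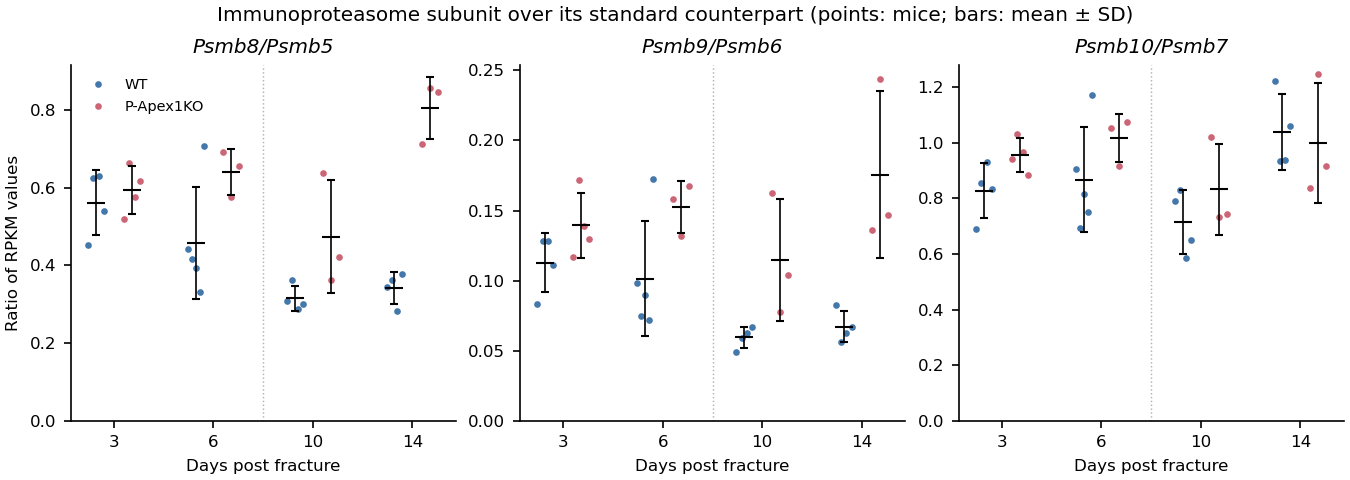
Ratio of RPKM values (vertical axes, from 0) of each immunoproteasome subunit to the standard subunit it replaces, against days post fracture, with 1 point per mouse, WT in blue and P-Apex1KO in red, and bars for the mean ± SD. *Psmb8*/*Psmb5* separates the genotypes at 14-dpf, *Psmb9*/*Psmb6* at 10- and 14-dpf, and *Psmb10*/*Psmb7* overlaps on every day.

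*Nlrc5* encodes the NLR protein that binds class I promoters, and it lies on chromosome 8 at 95160984 to 95253900. At 6-dpf its WT mice had 20.6, 17.8, 17.7, 17.8 and 51.6 CPM and its P-Apex1KO mice 41.4, 35.8 and 47.4 CPM. WT replicates 1 to 4 lay within 3 CPM of each other and below the lowest P-Apex1KO mouse, and WT replicate 5 lay above every P-Apex1KO mouse. The log2 fold change of 0.94 ± 0.34 was the largest of the 10 genes at 6-dpf and was not called (edgeR adjusted p = 0.117). *Nlrc5* at 3-dpf was at 22.8, 31.1, 30.3 and 32.6 CPM in WT and 69.8, 60.9, 32.4 and 32.9 CPM in P-Apex1KO mice, so 2 of the 4 P-Apex1KO mice were high and 2 lay within 1 CPM of the highest WT mouse. The highest, P-Apex1KO replicate 1, also stood apart in cell type markers. Its osteoblast markers summed to 64.7 CPM, against 351 to 480 CPM in WT mice of that day. Its neutrophil markers summed to 986 CPM, against 3296 to 5347 CPM. Skeletal muscle markers summed to 10392 CPM in it, against 2997 to 4316 CPM. The part of this in its class I values was not tested. At 10-dpf *Nlrc5* was at 26.4, 21.6, 20.2 and 24.3 CPM in WT and 60.4, 19.05 and 35.5 CPM in P-Apex1KO mice, where replicate 2 fell below every WT mouse. Only at 14-dpf did the groups separate, with 43.8, 31.6, 28.5 and 28.7 CPM in WT and 51.1, 71.8 and 60.3 CPM in P-Apex1KO mice, and with sex in the model that difference was 0.51 ± 0.20 (edgeR adjusted p = 0.146). *Nlrc5* was called on no day.

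Individual mice decided several of these calls. Without WT replicate 5 at 6-dpf, edgeR called all 10 genes higher, with a median log2 fold change of 0.74, beside 4.39% of all genes. Without P-Apex1KO replicate 1 at 6-dpf it called 0 of them, beside 2.31% of all genes. At 10-dpf the count of 5 fell to 0 without WT replicate 1, WT replicate 2, P-Apex1KO replicate 1 or P-Apex1KO replicate 3, when the shares of all genes called higher were 0.272%, 0.441%, 0.113% and 2.17%. At 14-dpf the count rose from 0 to 6 without P-Apex1KO replicate 1 and to 2 without P-Apex1KO replicate 2, beside 6.97% and 8.32% of all genes. Leaving out the library labelled P-Apex1KO replicate 4 at 3-dpf, whose *Apex1* value was high, raised the median from 0.35 to 0.40 and left 0 genes called. Without sex in the model 7 of the 10 genes were called at 14-dpf, all but *H2-D1*, *Tap2* and *Psmb10*, beside 18.8% of all genes.

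Whether the genotype difference changed with time was tested for neighbouring days. From 3- to 6-dpf edgeR called the change for 0 of the 10 genes (0.318% of all genes changed upwards), with 1 gene, *H2-D1*, at an unadjusted edgeR p below 0.05 (log2 change 0.39 ± 0.17), as had 12.5% of all genes. From 10- to 14-dpf it was again 0 of 10 (0.396% of all genes changed downwards), with *Psmb10* at an unadjusted edgeR p below 0.05 (-0.49 ± 0.21), as had 13.1% of all genes. Neither count exceeded its background. No test was made across 6- and 10-dpf, so the higher count at 10-dpf is not a tested difference between those days. Within WT mice *H2-D1* fell by 0.39 and *Psmb8* by 0.48 on the log2 scale from 3- to 6-dpf (edgeR adjusted p = 0.0151 and 0.0344), 2 of 10 genes where 15.1% of all genes fell. In P-Apex1KO mice 0 of 10 genes changed over that step, where 6.91% of all genes fell, and 0 of the 10, against 28.4% of all genes, had an unadjusted edgeR p below 0.05. Between 10- and 14-dpf in WT mice, *H2-D1* rose by 0.50 and *Psmb10* by 0.47 (edgeR adjusted p = 0.0425 and 0.0281), and 6.19% of all genes rose. In P-Apex1KO mice edgeR called 0 of the 10 over that step and 0.0304% of all genes higher, with *B2m* alone of the 10, and 14.3% of all genes, at an unadjusted edgeR p below 0.05. The WT calls from 3- to 6-dpf went to 0 without WT replicate 4 of 3-dpf or without WT replicate 1, 2 or 3 of 6-dpf. Those from 10- to 14-dpf went to 0 without WT replicate 1, 2 or 3 of 10-dpf or WT replicate 1, 2 or 4 of 14-dpf.

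Interferon-responsive genes also lay higher in P-Apex1KO calluses. The genes listed as induced by interferon gamma had a median log2 fold change of 0.95, 0.94, 1.07 and 0.64, with 0 of 24, 4 of 23, 2 of 23 and 9 of 23 tested genes called higher and 0 lower. Those listed for type I interferon had medians of 1.51, 0.71, 0.64 and 0.89, with 0 of 19, 8 of 19, 5 of 19 and 6 of 19 called higher. All tested genes of the type I list had a log2 fold change above 0 on each day, and 24 of 24, 23 of 23, 22 of 23 and 22 of 23 of the interferon gamma list did. Many of these genes respond to both kinds of interferon. Summed over the type I list, the genotypes overlapped at 3-dpf, at 292 to 573 CPM in WT and 417 to 1395.5 CPM in P-Apex1KO mice. They also overlapped at 10-dpf, at 249 to 353 CPM and 300 to 606 CPM, and not at 6- or 14-dpf. Sums over the interferon gamma list overlapped at 3-dpf, at 302 to 346 CPM and 332 to 750 CPM, and at 6-dpf. At 10- and 14-dpf those sums did not overlap. *Cxcl10*, a chemokine for activated T cells, rose by 2.18 ± 0.33 at 6-dpf (edgeR adjusted p = 0.00454), and *Cxcl9*, which binds the same receptor, by 2.48 ± 0.27 at 14-dpf (edgeR adjusted p = 0.00202). *Irf7* and *Mx1*, an interferon regulatory factor and an antiviral GTPase, rose by 1.21 and 1.34 at 6-dpf (edgeR adjusted p = 0.00838 and 0.0107), *Ifit3* by 1.17 at 10-dpf (edgeR adjusted p = 0.0263) and *Rsad2* by 1.33 at 14-dpf (edgeR adjusted p = 0.00233).

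*Ifng* itself was close to the limit of detection, with 0 to 8 reads per WT library and 1 to 23 per P-Apex1KO library, and it was tested only at 6- and 14-dpf (log2 fold change 1.82 ± 0.97 and 1.86 ± 1.34, edgeR adjusted p = 0.278 and 0.408). Of 18 genes listed for the transcription of class I genes, 0, 5, 2 and 0 were called higher at 3-, 6-, 10- and 14-dpf. *Irf1*, which binds interferon-stimulated elements, had log2 fold changes of 0.29, 0.42, 0.21 and -0.055 and was not called. *Ciita*, the class II counterpart of *Nlrc5*, had -0.15 at 3-dpf, rose by 1.18 ± 0.15 at 6-dpf (edgeR adjusted p = 0.00227), and had 1.03 and 1.12 at 10- and 14-dpf. Class II genes, which are largely restricted to antigen-presenting cells, had medians of -0.18, 1.12, 0.88 and 1.18. At 3-dpf the 10 class I genes were thus all above 0 and the 10 class II genes all below 0, and neither list held a call. *H2-Aa*, a class II alpha chain, rose by 1.35 ± 0.11 at 6-dpf (edgeR adjusted p = 3.89e-04). Genes listed as NK and myeloid cell receptors for class I or class I-like molecules had medians of 0.14, 1.04, 0.94 and 1.24, with 0 of 15, 8 of 15, 3 of 15 and 3 of 15 called higher. Among these were the NK receptor gene *Klrk1* at 6-dpf (1.84, edgeR adjusted p = 0.00539) and the inhibitory receptor gene *Pirb* at 10-dpf (0.95, edgeR adjusted p = 0.00854).

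Leukocyte markers differed between the genotypes as well. The list of 10 leukocyte markers had a median log2 fold change of 0.21, 0.49, 0.61 and 0.91, with 0 of 10, 4 of 10, 6 of 10 and 2 of 10 called higher. Its summed level at 6-dpf was 1427 to 1686 CPM in WT and 1754 to 2432 CPM in P-Apex1KO mice, and at 10-dpf 1083 to 1448 CPM and 1467 to 1909.9 CPM. The genotypes did not overlap on either day, and the same held at 14-dpf. At 3-dpf the sums overlapped, at 2284 to 2539 CPM and 2176 to 3184 CPM. Macrophage markers had medians of 0.22, 0.78, 0.80 and 1.01, but moved both ways, with 7 of 10 called higher and 0 lower at 6-dpf, 6 and 1 at 10-dpf and 7 and 2 at 14-dpf. The 2 lower at 14-dpf were *Csf1r* (-1.12, edgeR adjusted p = 0.00113) and *Cd68* (-1.38, edgeR adjusted p = 0.00184), which osteoclasts also express. T and NK cell markers, summed to only 37.1 to 54.3 CPM in WT and 57.3 to 88.1 CPM in P-Apex1KO mice at 6-dpf, had 0.10, 1.31, 0.86 and 1.15. With the leukocyte level as a covariate in place of sex, edgeR called 0 of the 10 genes at 6-dpf, where *H2-D1* had an adjusted p of 0.054, and 0 at 10-dpf, beside 0.666% and 0.0106% of all genes. Their medians in that fit were 0.80 and 0.54, against 0.50 and 0.62 in the fit without sex or leukocyte level. At 14-dpf the fit with the leukocyte level called 0 of the 10, beside 6.92% of all genes. Its median was 0.25, against 0.69 in the fit without sex and 0.48 in the fit with sex. *H2-D1*, *Tap2* and *Psmb10* were below 0 in it, at -0.097, -0.21 and -0.33. Because leukocyte levels did not overlap between the genotypes at 6-, 10- or 14-dpf, the covariate follows genotype. These fits therefore cannot separate leukocyte level from genotype, and nothing is concluded from their counts. Skeletal muscle markers, of which 7 of 10 were called higher at 6-dpf, summed to 6142 to 14131 CPM in P-Apex1KO and 2661 to 4760.1 CPM in WT mice that day. Chondrocyte markers, which define the cartilage of the callus, had medians of -3.17 at 6-dpf and 3.30 at 14-dpf. At 14-dpf their sums overlapped, at 1464 to 8471 CPM in WT and 6193 to 9413 CPM in P-Apex1KO mice. The lowest was WT replicate 1, the only WT female, on which the 14-dpf fit with sex depends. Osteoblast markers summed to 6469 to 7596 CPM in WT mice at 10-dpf and chondrocyte markers to 30780.0 to 56851 CPM in WT mice at 6-dpf, so the defining cells of a callus were present. Osteoblast markers had medians of -1.30, -0.95 and -2.08 at 6-, 10- and 14-dpf, with 7, 6 and 6 of 10 called lower and 1 called higher at 6-dpf, and their P-Apex1KO sum at 10-dpf was 4004 to 5704 CPM. Osteoclast markers were called lower in 5 of 8 at 10-dpf and 8 of 8 at 14-dpf (medians -1.71 and -2.47). Neutrophil markers had medians of 0.42, 0.20, 0.93 and 1.21, with 8 of 10 called higher at 14-dpf. B cell markers had medians of -0.24, 1.34, 0.55 and 1.96, with 2 of 9 called higher at 6-dpf, and erythroid genes of 0.75, 0.33, 0.43 and 1.28, with 6 of 9 called higher at 14-dpf. Endothelial markers had a median of -0.56 at 14-dpf, with 5 called lower and 1 higher. The part of these cell types in the class I difference was not tested.

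The marker levels of WT replicate 5 at 6-dpf, which had high class I genes, are given here. Its leukocyte markers summed to 1427 CPM, the lowest of the 8 mice, its macrophage markers to 1781 CPM, also the lowest, and its chondrocyte markers to 56851 CPM, the highest. Its T and NK cell markers (39.7 CPM) and B cell markers (183.6 CPM) were at the WT median of that day. This is 1 library, and a link between these levels and its class I genes was not tested. The score of a list, the mean log2 CPM of its genes minus the WT mean of that day, was 1.09 for the interferon gamma list in that mouse, against 0.84 to 1.01 in the P-Apex1KO mice and -0.48 to 0.11 in the other WT mice. For the type I list it was 0.32, close to WT replicate 1 at 0.31 and below the P-Apex1KO mice at 0.68 to 0.69. Its *Apex1* value was 20.7, 25.2, 25.3, 28.9 and 20.8 CPM in the order of the 5 WT replicates, so it was the second lowest of them and above the P-Apex1KO range of 15.1 to 15.8 CPM.

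**Figure D5:**
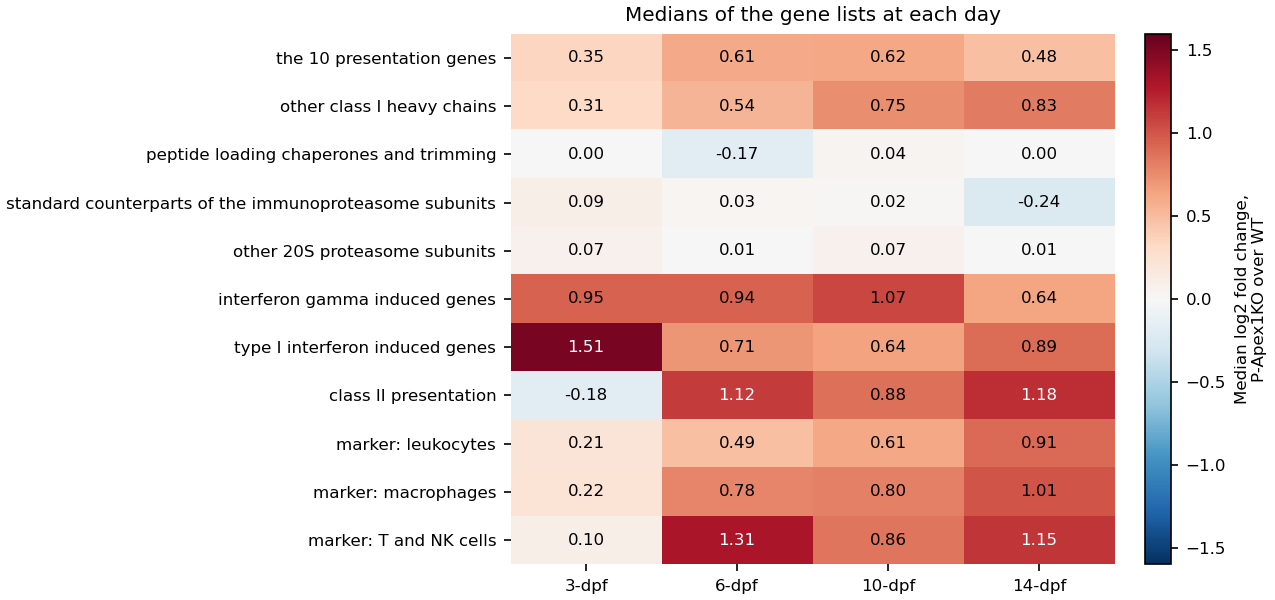
Median log2 fold change of P-Apex1KO over WT (colour and printed value) for the 10 presentation genes and for lists of related genes and cell type markers (rows) at each day (columns). Interferon-induced lists lie above 0 on all 4 days, the class II list below 0 at 3-dpf and above 0 on the later days, and the leukocyte list at 0.21 at 3-dpf and 0.91 at 14-dpf.

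The 10 genes varied together from mouse to mouse within groups. After the mean of its group was taken from each mouse, Pearson's r of each gene with the mean of the other 9 ran from 0.76 (*H2-D1*) to 0.94 (*Psmb9*) over 30 mice, which share 8 group means and the same scaling. Among 15314 protein-coding genes compared with the mean of the 10, where the median r was 0.011, those with the highest r included *H2-Q4* (0.90), *Irf1* (0.89), *Gvin2* (0.88), *H2-Q7* (0.84), *Ifi47* (0.83), *Iigp1c* (0.82) and *Bst2* (0.81). Of the genes named, *H2-Q4* and *H2-Q7* are heavy chain genes and the others are known as interferon-responsive genes. WT replicate 5 at 6-dpf was the highest WT mouse of its day for *H2-Q4* (23.2, 13.7, 23.3, 21.7 and 46.8 CPM in the 5 WT mice) and *Irf1* (36.3, 34.6, 37.97, 38.1 and 59.2 CPM), and it enters these correlations. *H2-Q4* and *H2-Q7* share the uncertain split of reads among heavy chain genes.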

How the data were processed

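Callus RNA depleted of rRNA and globin transcripts was sequenced from stranded libraries. The deposited table holds raw read counts per gene, which the authors made by aligning reads to mm39 with STAR 2.7.0d and counting uniquely mapped, reverse-stranded reads with featureCounts. All 30 columns were matched to samples by name. Counts were tested with edgeR 4.0.16 (R 4.3.3) quasi-likelihood fits, genes kept by filterByExpr and TMM scaling, within each day for genotype with sex, and over neighbouring days for time. DESeq2 1.42.0, other scalings, filters and covariates, a replicate block and the omission of each mouse were alternatives. RPKM used exon lengths of GENCODE. Subunit ratios were compared by exact permutation tests. Named genes were the 10 members, *Apex1*, standard subunits, *Psme1*, *Psme2*, *Ifng*, *Ciita*, *Irf1*, up to 2 called genes with the smallest p per list and day, and the 8 most correlated genes; 1 gene under this rule is not reported here. The 10 genes and all lists were chosen with earlier results of these data known. Of 263 list symbols, 260 were in the table. Fits were tested on simulated data. Depth was 18334389 to 43111491 reads per library.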

Additional observations from a re-analysis of the deposited data

Results flagged for a closer look

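In 50 sets of values, 1 gene in 1 group of 4 or 5 mice, the gap between an extreme mouse and its nearest neighbour exceeded Dixon's critical value in 5, where chance gives about 1 set in 20. All 5 were in WT replicate 5 at 6-dpf, and genes of 1 mouse are not independent. That mouse had 73.2 CPM of *Tap1*, where the next WT mouse had 41.6 CPM. It had 48.0 CPM of *Tap2* (next 34.3 CPM), 43.9 CPM of *Psmb8* (next 26.8 CPM), 28.5 CPM of *Psmb9* (next 14.4 CPM) and 51.6 CPM of *Nlrc5* (next 20.6 CPM).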

How the results depend on the processing

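The counts of the 10 genes called between genotypes depended on the fit, and every call was higher in P-Apex1KO mice. At 3-dpf the count was 0 in every fit. At 6-dpf it was 1, and became 6 with DESeq2, 10 with scaling by library size alone (13.7% of all genes higher), 2 with at least 10 counts in every sample (6.55%), 3 with no filter (3.09%), 4 with all samples in one model (5.76%) and 0 with the leukocyte marker level in place of sex. At 10-dpf it was 5, and became 8 with DESeq2, 3 without sex (1.8%) and 0 with the leukocyte level. At 14-dpf it was 0, and became 2 with DESeq2, 7 without sex, 3 with library size alone (9.28%), 1 with no filter (3.13%) and 5 with all samples in one model (12.7%). Library size alone also moved the median of all genes, to 0.20 at 6-dpf and 0.31 at 14-dpf. Leaving out each mouse gave 0 to 10 calls at 6-dpf, 0 to 7 at 10-dpf and 0 to 6 at 14-dpf, where the fit without WT replicate 1 could not be made because sex and genotype then coincide. The share of all genes called in the 10-dpf fit with 7 calls is not reported here, so that count has no background beside it.

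The replicate number as a block in place of sex gave 7 calls at 6-dpf (1.25% of all genes higher), 4 at 10-dpf (3.78%), 4 at 14-dpf (6.66%) and 0 at 3-dpf (0.00503%), and a *Psmb10* log2 fold change of 0.0064 at 14-dpf. The numbers did not pair the samples: correlations of same-numbered mice ran from -0.25 to 0.39.

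For time, the 2 WT calls from 3- to 6-dpf became 7 with library size alone (34.1% of all genes lower) and 0 to 3 without single mice. The 2 from 10- to 14-dpf became 0 with library size alone and 0 to 2 without single mice. The change of the genotype difference from 3- to 6-dpf gave 1 call with library size alone (1.42% of all genes higher).

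Signs turned for values that were not called, most of them near 0. *Psmb10* at 14-dpf was 0.0094 without sex, 0.15 with library size alone and -0.27 to 0.048 without single mice, the highest being that without P-Apex1KO replicate 1. *Tap2* at 14-dpf was -0.0078 with all samples in one model, -0.21 with the leukocyte level and -0.12 to 0.23 without single mice, the lowest being that without P-Apex1KO replicate 2. *H2-D1* at 14-dpf was 0.33 ± 0.26 in the main fit and -0.097 with the leukocyte level. The log2 difference of *Psmb8*/*Psmb5* at 3-dpf was -0.012 without WT replicate 1, and that of *Psmb10*/*Psmb7* at 14-dpf was 0.014 without WT replicate 1 and -0.24 to 0.050 over all omissions of 1 mouse. Apart from the effect of fewer mice or other filters, the cause of these changes was not tested. No call between genotypes changed sign in any fit.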
